A study of Schizosaccharomyces pombe with 8 samples.

Results

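The comparison described here is that of seb1-1 with WT in fission yeast, Schizosaccharomyces pombe, across all 5129 genes that the deposited table lists for it. Every listed gene was taken as a member, so the 5129 members are all the genes the series lists. RNA from 8 libraries was sequenced in 4 groups of 2, labelled WT, seb1-1, epe1KO and epe1KO_tfs1DN, and 4 of these libraries enter this comparison. WT names no mutation, and seb1-1 is a viable mutant allele of seb1; further markers of the strains are not given in the labels. The other pair of groups carries an epe1 deletion by its labels, with or without tfs1DN, a dominant-negative version of TFIIS, the factor that restarts stalled RNA polymerase II. By the study, tfs1DN sat behind a thiamine-repressible promoter, and with thiamine present most tfs1 transcripts came from the wild-type gene. Cells were grown in YS, a rich medium with glucose, and poly(A) RNA was sequenced with a directional kit. The table gives 1 result per gene over the 4 libraries and no value per library, so values by sample cannot be shown and the depth of each library is unknown.

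Seb1 binds both nascent transcripts and the tail of RNA polymerase II, and helps to choose where transcripts are cleaved and polyadenylated. It is also needed for full silencing of pericentromeric repeats. Yeast cells tune the making of ribosomes and the uptake of sugars to the supply of nutrients, and control of mRNA levels is part of both programmes. Results are ordered by function, beginning with the ribosome.

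For each gene the authors' deposited table gives a mean normalized count over the 4 libraries and a log2 fold change of seb1-1 over WT. The fold change is moderated: a prior shrinks it, so it is smaller than a plain ratio of counts. A gene is said to have risen or fallen at an adjusted p below 0.05 in that table, and to have been called at an adjusted p below 0.01 with more than a 2-fold change. Values in brackets after a fold change are its 95% interval, which rests on 2 libraries a group. The normalized means sum to 22456953 over all genes, with a median of 872 per gene. The fold change had a median of -0.03 over all genes and ran from -0.61 at the 5th percentile to 0.59 at the 95th, and its median standard error (SE) was 0.304. The mutated gene, seb1 (SPAC222.09), had a mean of 3558 and a log2 fold change of -0.19 (-0.85 to 0.46), which does not test the allele, because the mutation need not change the level of its mRNA. Of 11 auxotrophic marker genes, which can differ between strains, none rose or fell, and their values ran from -0.38 for ade7 to 0.48 for ura4. The 7 M and 4 P mating type genes had medians of -0.44 and -0.43, and none of them rose or fell.

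A total of 59 genes rose or fell out of 4972 with an adjusted p, or 1.19%. The 25 that rose make up 0.503% and the 34 that fell 0.684%. Called genes numbered 24 (0.483%), with 9 higher (0.181%) and 15 lower (0.302%) in seb1-1. Without adjustment, at p below 0.05, 4.58% of 5071 genes were higher and 4.71% were lower. Each of the 59 genes changed by more than 2-fold, and the smallest of these changes, that of rrp14, was 1.06 on the log2 scale. The called genes spanned means from 37.9 for SPAPB1A11.02, an esterase/lipase gene, to 139120 for plb1, which encodes a lysophospholipase.

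**Figure D1:**
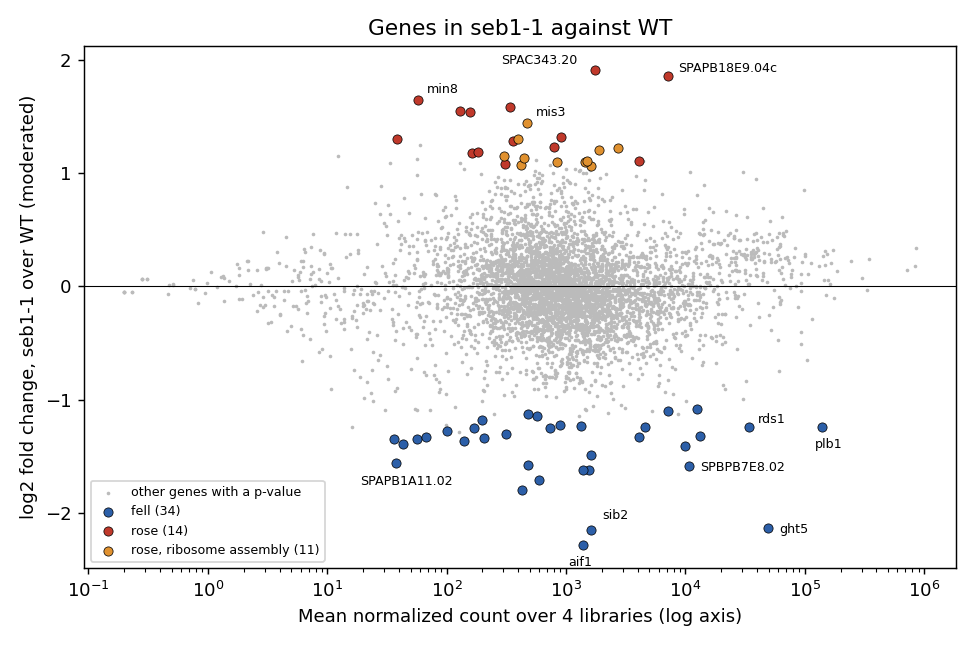
Moderated log2 fold change of seb1-1 over WT (vertical axis) against the mean normalized count over 4 libraries (horizontal log axis), 1 point per gene. The 34 genes that fell lie at or below -1.08 and the 25 that rose at or above 1.06; 11 of the latter are ribosome assembly genes and sit at means between 301 and 2727.

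Of the genes that build ribosomes, 11 rose in seb1-1 and none fell. The small subunit processome, the particle that folds and cuts the precursor of the 18S rRNA around the U3 snoRNA, is on 1 list with U3 proteins. Of its 47 members 4 rose and none fell, 46 had a positive fold change, and the median was 0.61. In WT and seb1-1 together mis3 (SPBC25B2.05), encoding an rRNA-processing protein, had a mean of 472 and rose by 1.44 (0.78 to 2.11, adjusted p 0.00589). The RNA helicase gene rok1 rose by 1.15 (0.53 to 1.77), and the U3 protein genes imp3 and lcp5 rose by 1.09 and 1.07. Among 53 factors that assemble the large subunit 7 rose and none fell, 52 were positive, and the median was 0.67. The members that rose were nop16 at 1.30 (0.68 to 1.92, adjusted p 0.00878), cgr1 at 1.22 (0.56 to 1.88), ebp2 at 1.20 (0.55 to 1.85), rpf1 at 1.13, mak16 and the RNA methyltransferase gene nop2 at 1.10, and rrp14 at 1.06. Each of these acts on precursors of the large subunit. The 12 proteins of the box H/ACA and C/D particles, which guide the modification of rRNA, had a median of 0.29 and all 12 were positive, but none rose; the smallest unadjusted p belonged to nhp2, at 0.55 (-0.05 to 1.14).

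Joined into 1 group, the 3 lists hold 108 genes, of which 11 rose, against 0.503% of all genes tested. The fold change was positive in 106 of the 108 (98.1%), against 46.1% of all genes with a p-value. An unadjusted p below 0.05 with a higher level in seb1-1 was found in 54 of them, 1 in every 2, against 4.58% of all genes. The lowest member was rrp17, an exonuclease gene, at -0.06. The lists were chosen with earlier results of these data known, cgr1 was moved between lists after its value had been seen, and the 3 were joined afterwards, so the count is a description. Among genes outside the lists, sqs2, which encodes a G-patch RNA-binding protein, rose by 1.17, and hgh1 by 1.23 (0.62 to 1.84).

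Factors that make and trim stable RNAs had positive medians, and none of them passed the threshold. RNA polymerases I and III, which transcribe rRNA and tRNA genes, had 26 subunit and factor genes on their list, with a median of 0.47 and 23 positive. None rose; the highest was ker1, a polymerase I subunit gene, at 1.02 (0.38 to 1.66, adjusted p 0.103). The RNA exosome and its TRAMP helper, which trim and destroy nuclear RNA, had 18 members, all positive, with a median of 0.39, and none rose. The 42 tRNA modification enzymes had a median of 0.33, with 37 positive, 6 higher and 1 lower at an unadjusted p below 0.05, and none past the threshold; slm3 and ctu1, both enzymes of thiolated tRNA, were each at 0.92.

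The 135 cytoplasmic ribosomal protein genes had a median of 0.28 and 128 were positive (94.8%), yet none rose, and 6 had an unadjusted p below 0.05. The highest was rps3001 at 1.01 (0.38 to 1.63, adjusted p 0.0955). Translation initiation factors (26 genes, median 0.14), elongation and release factors (10, median 0.13) and the mitochondrial ribosome (74, median 0.06) had no member that rose or fell. Aminoacyl-tRNA ligases (35, median -0.07) also had none.

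**Figure D2:**
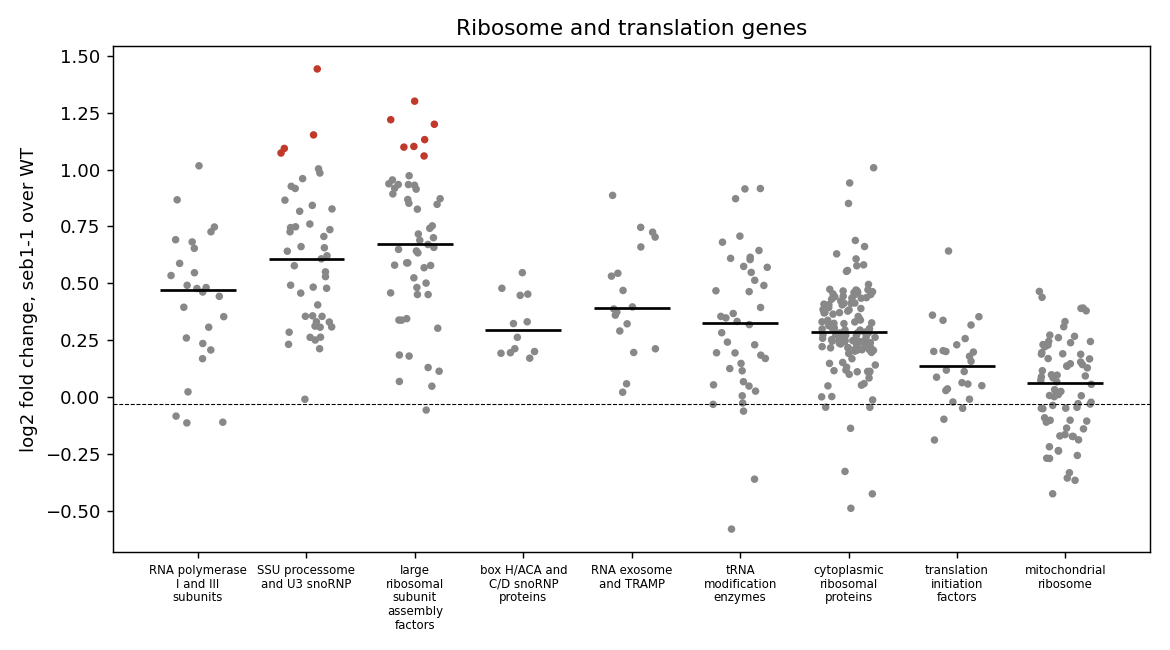
Moderated log2 fold change of seb1-1 over WT for each member of 9 lists, 1 point per gene, with the list median as a bar, points in red for genes that rose and a dashed line at the median of all genes (-0.03). Medians were 0.67 and 0.61 in the large and small subunit lists and 0.29 in the box H/ACA and C/D list. They were 0.28 in the ribosomal proteins and 0.06 in the mitochondrial ribosome.

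A pair of hexose transporter genes fell in seb1-1. Fission yeast takes up glucose through hexose transporters of the Ght family. Of the 8 with a p-value 2 fell, against 0.684% of all genes tested, and the median was -0.64. Where the moderation was undone with an estimated prior, it was -1.02 over the 7 other than ght7, so these 2 medians cover different genes. The high-affinity transporter gene ght5 (SPCC1235.14) had a mean of 49383 and fell by 2.13 on the log2 scale (-2.72 to -1.54, adjusted p 6.02e-09). The gene of the related Ght4 had a mean of 1337 and fell by 1.23 (-1.93 to -0.54, adjusted p 0.0475). The gluconate transporter gene ght3 was at -0.81, ght1 at -0.72 and ght6 at -0.56, whereas ght2 was at 0.47 and ght7 at 0.17, and none of these passed. The abundant ght8, at a mean of 27754, was at -0.08 (-0.66 to 0.49). The ght5 and ght8 genes share stretches of at least 90% identity, so reads may be shared between them.

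Of 10 further genes for galactose, maltose, sucrose and related substrates 2 fell, against 0.684% of all genes tested, and the median was -0.65. The alpha-glucosidase gene agl1 (mean 1404) fell by 1.62 (-2.31 to -0.92, adjusted p 0.00181), and gti1, whose product induces gluconate uptake, fell by 1.33. The UDP-galactose enzyme genes gal7 and gal10 were at -0.82 and -0.74, and gal1 was at 0.11. Trehalose and glycerol metabolism had 10 members, all negative, with a median of -0.49; the lowest was dak1, a dihydroxyacetone kinase gene, at -1.12 (adjusted p 0.0532), followed by gpd1, which makes glycerol 3-phosphate, at -0.83. The trehalose synthase gene tps3 stood outside that list and fell by 1.10. In fermentation pdc201 (mean 598), 1 of 11 pyruvate decarboxylase and alcohol dehydrogenase genes, fell by 1.71 (-2.40 to -1.02, adjusted p 0.000626).

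Of 14 glycolysis and gluconeogenesis genes none rose or fell, and the median was -0.05. The most abundant of them were tdh1 at 0.34, fba1 at 0.18 and eno101 at 0.14, while the hexokinase gene hxk2 was at -0.75 (-1.29 to -0.20) and the second enolase gene eno102 at -0.90. The 19 genes of glucose sensing through cAMP and protein kinase A had a median of -0.37 and 1 positive member, and none passed; the repressor gene scr1 was closest, at -1.07 (adjusted p 0.0582). The 32 genes of the MAP kinase pathways had a median of -0.27, and none passed. At an unadjusted p below 0.05, 6 of them were lower, against 4.71% of all genes. The gene srk1 was at -0.88 and the stress kinase gene sty1 at -0.77.

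Genes for amino acids, iron and copper were next. Of 22 amino acid permease genes 2 fell, per1 (mean 1629) by 1.49 (-2.18 to -0.80) and dip5 (mean 36.3) by 1.35, and the median was -0.26. Among all genes tested 0.684% fell. Positive values were found in 5 of the 22, against 46.1% of all genes with a p-value. At an unadjusted p below 0.05, 5 of the 22 were lower, against 4.71% of all genes. The gene aga1, a glutamate N-acetyltransferase of arginine synthesis, fell by 1.62 (-2.22 to -1.02, adjusted p 8.12e-05), while the 18 members of the arginine and lysine list, which does not hold it, had a median of -0.11. In iron and copper uptake 1 of 17 members tested fell, sib2 (mean 1632), whose product makes the hydroxamate groups of siderophores. Its log2 fold change was -2.15 (-2.75 to -1.55, adjusted p 6.02e-09), against -0.31 for sib1, the ferrichrome synthetase gene of the same pathway. The iron permease gene fip1 was at -0.04, and the median of the list was -0.01. The copper transporter genes ctr5 and ctr4 were at 0.65 and 0.64, and neither passed.

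The lysophospholipase gene plb1 (mean 139120) fell by 1.24 (-1.81 to -0.66, adjusted p 0.00645). It was 1 of 31 fatty acid and phospholipid genes tested, which had a median of -0.22. At an unadjusted p below 0.05, 7 members were lower, against 4.71% of all genes. The ergosterol list covers sterol synthesis and its oxygen-responsive control. Against 0.684% of all genes tested, 2 of its 28 genes fell. They were hem13, the heme synthesis gene of coproporphyrinogen oxidase, at -1.41 (-2.13 to -0.69), and sre1, the sterol-responsive transcription factor, at -1.25 (-1.95 to -0.54). The sterol desaturase gene erg31 was at -1.10 (adjusted p 0.103), and the median of the list was -0.15. Of 42 mannosyl- and galactosyltransferase genes, with a median of -0.10 and 14 positive, 1 fell. It was imt2, a mannosyltransferase gene of sphingolipids, which fell by 1.25 (adjusted p 0.00793). Of 33 glucan synthase and glucanase genes, with a median of -0.16 and 11 positive, eng1, the glucanase gene of cell separation, rose by 1.11 (0.54 to 1.67) and none fell. Among all genes with a p-value 46.1% were positive.

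The remaining genes that moved have varied roles. Of the 59 genes 27 belong to a list. Those that fell include aif1, a flavoprotein gene (mean 1387), at -2.28 (-2.97 to -1.59), the copper amine oxidase gene cao2 at -1.79, the meiotic regulator gene mei2 at -1.34, the metallothionein gene zym1 at -1.23 and hsp3105 at -1.33. Called genes with less known roles were SPBPB7E8.02 (mean 10784) at -1.59, the amidotransferase gene SPAC13C5.04 at -1.58, SPAPB1A11.02 at -1.56 and SPAPB24D3.07c at -1.33. At an adjusted p between 0.01 and 0.05, the others that fell were spn5, a septin gene of meiosis, SPAC11D3.03c, SPCC1235.18, cum1, hen1, SPAC17A2.11, SPCC191.06, SPAC18G6.12c, gpi12 and SPAC26H5.09c, from -1.39 to -1.08. On the higher side stood SPAC343.20 (mean 1765) at 1.91 (1.34 to 2.48), SPAPB18E9.04c (mean 7129) at 1.86, min8 at 1.64, SPBC215.06c at 1.58, SPBC1711.15c at 1.55, the meiotic arrestin gene SPBC557.05 at 1.54 and SPCC24B10.18 at 1.31. The G protein gene gnr1 (mean 38.7) was at 1.30, SPAC144.01 at 1.29 and SPAC683.02c at 1.19. Uncharacterized products make up 11 of the 59 genes (18.6%), against 6.32% of all genes tested.

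Of 52 lists, 38 had no member that rose or fell, among them the proteasome, DNA replication, DNA repair, the spindle and kinetochore, the vacuolar ATPase and nuclear transport. Vacuolar proteases and autophagy had 33 members with a median of -0.33, and no member passed. Of these 5 were positive, against 46.1% of all genes with a p-value. List medians are set here beside a median of -0.03 over all genes, and no list was tested as a set.

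**Figure D3:**
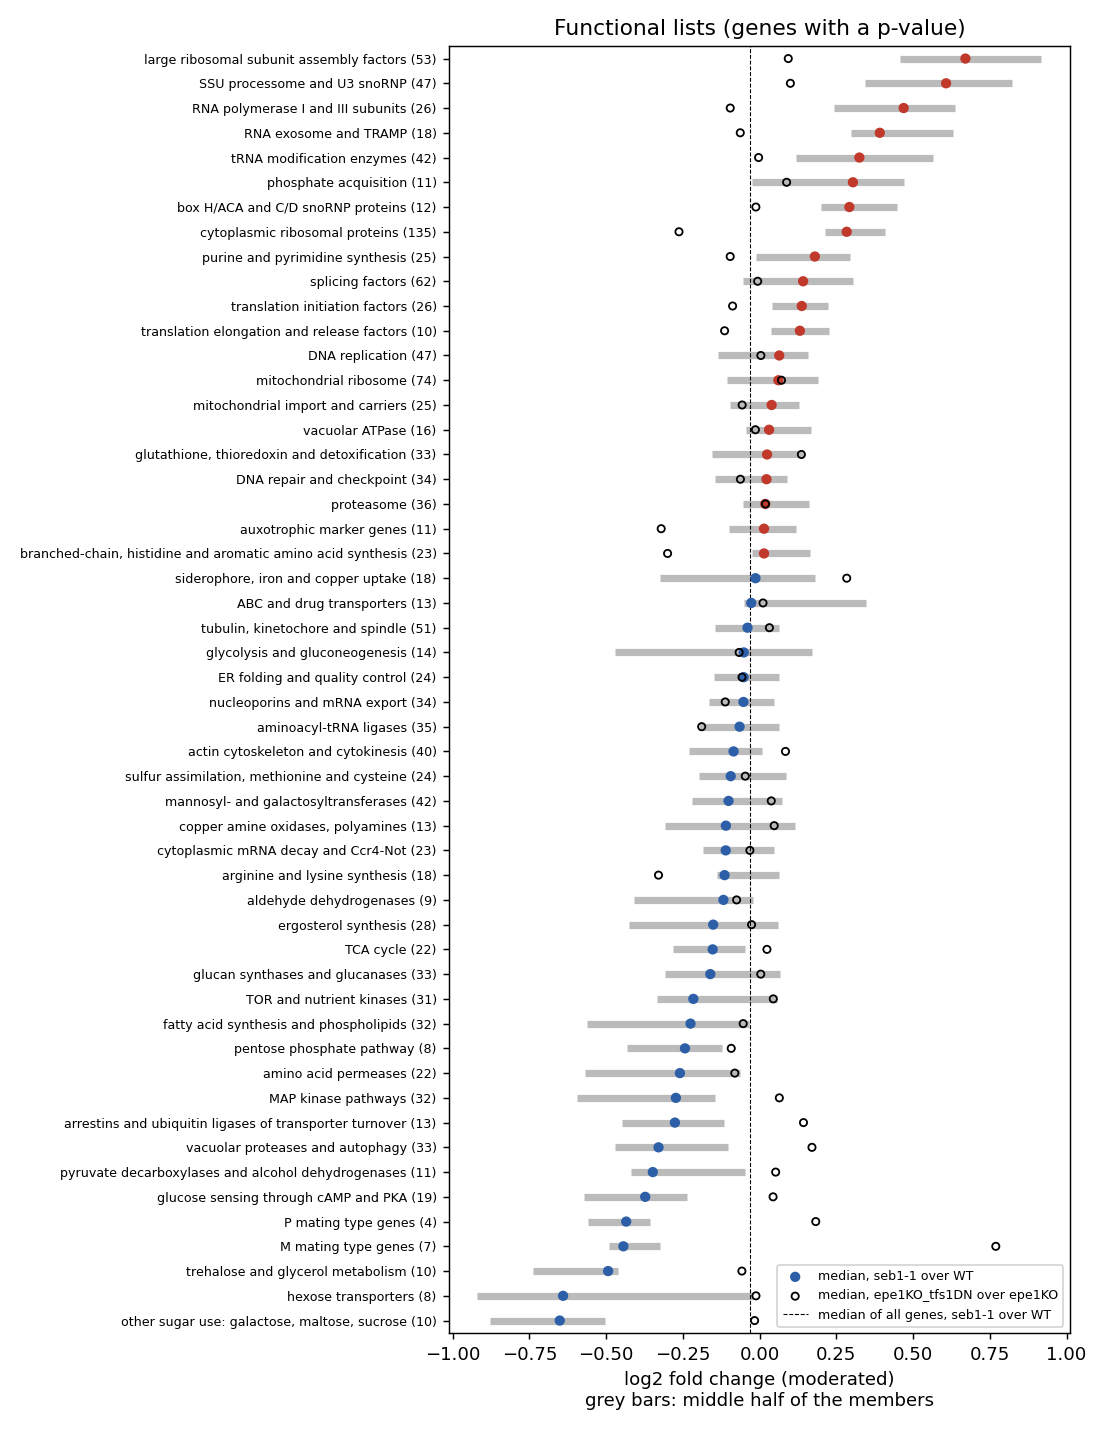
Median log2 fold change of each of the 52 lists in seb1-1 over WT (filled points), with the interquartile range of members as grey bars and the medians of the same lists in epe1KO_tfs1DN over epe1KO as open circles. The number of genes with a p-value is in brackets after each name. The lists run from -0.65 for other sugar use to 0.67 for large ribosomal subunit assembly, and the dashed line is the median of all genes.

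Several of these genes lie over or beside others, and the sources used here do not give the strand setting of the counting, so reads of overlapping genes may not be assigned to 1 gene. By the reference annotation, 11 of the 25 genes that rose overlap a listed gene on the other strand, as do 6 of the 34 that fell and 38.0% of all placed genes tested. One such pair was SPAC343.20 at 1.91 with rds1, a stress-induced gene on the opposite strand with a mean of 33898, which fell by 1.24 (-1.92 to -0.56). Other overlapping partners did not rise or fall, and their values went in both directions. Small values were those of pnc1 at -0.15 beside SPBC557.05, SPAC1B3.01c at -0.05 beside min8, cdc6 at -0.08 beside hen1 and spt16 at 0.15 beside nop2. In the direction of the gene lay mti2 at -0.49 beside aga1 and mrpl28 at 0.46 beside rpf1. In the opposite direction lay pps1 at -0.38 beside sqs2 and hri2 at -0.20 beside mak16. Next to SPBC215.06c, which rose, the neighbours gpd1 and pdp2 were at -0.83 and -0.81. The genes SPCC1235.18 and ght5, which lie in tandem, both fell, by 1.35 and 2.13. The long non-coding gene prt2 rose by 1.08 (adjusted p 0.0475), and the phosphate transporter gene pho84, which it is known to repress in cis, was at 0.41 (-0.28 to 1.10). The prt2 and pho84 models share sequence, so their reads may not be separate. The phosphate acquisition genes tgp1 and pho1 were at 1.00 and 0.82, and neither passed.

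Fold change also varied with transcript length. Placed genes were split into 4 nearly equal groups by length. The 1268 with the shortest transcripts had a median of 0.11, and the medians of the next 3 groups were -0.00, -0.07 and -0.12. The share of genes above 0 went from 65.4% to 30.3%. Without the ribosomal protein and ribosome assembly genes the medians were 0.08, -0.01, -0.08 and -0.13, so the order was kept. In the epe1KO_tfs1DN comparison the same groups had medians of -0.02, 0.06, 0.02 and -0.06. Spearman's rho of fold change with length was -0.28 across 5061 genes of the same libraries, which are not independent replicates. The groups differ in function and in mean count, and the part of RNA quality or library preparation in this order was not tested. The annotated start is incomplete for 601 of 5113 genes, so their lengths may be understated. The cut points of length were 1114, 1689 and 2476 bases, and the middle ribosomal protein transcript had 621 bases. Of the 34 genes that fell 29 have no intron (85.3%), as do 14 of the 25 that rose (56.0%) and 51.3% of all placed genes. By the orientation to the downstream neighbour, the medians were -0.03 for convergent and -0.03 for tandem genes. Genes within 100 kb of a chromosome end had a median of 0.06 in 165 genes.

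**Figure D4:**
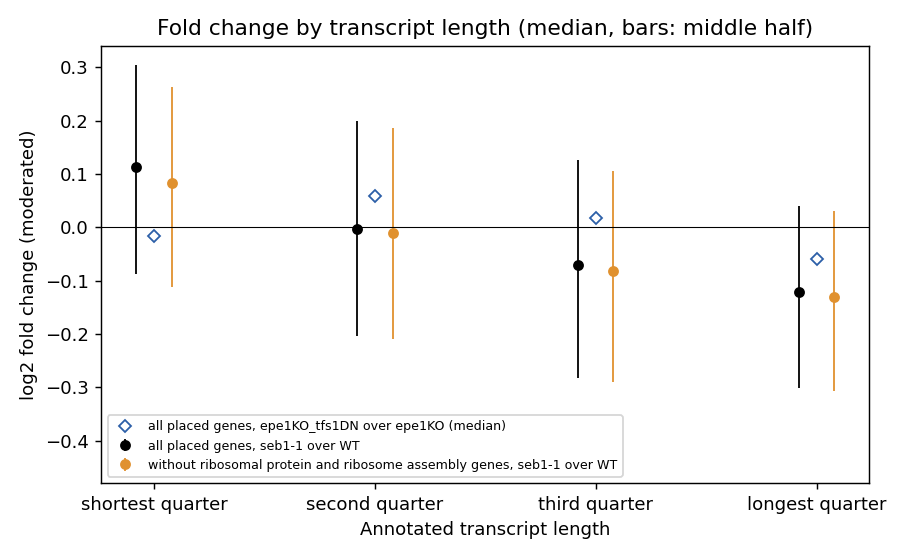
Median moderated log2 fold change of seb1-1 over WT in 4 groups of placed genes by transcript length, with bars for the interquartile range, for all genes (black) and without ribosomal protein and ribosome assembly genes (orange). The medians go from 0.11 in the shortest group to -0.12 in the longest, and open diamonds give those of epe1KO_tfs1DN over epe1KO.

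Promoters, from 250 bases before to 50 after the annotated start, were read in the RefSeq assembly ASM294v3 for 7 short letter patterns on either strand. The GC-rich letters CCCCAC or CCCCGC are of the kind bound by the zinc finger factor Scr1. They were in 7 of the 34 promoters of genes that fell (20.6%) and in 0 of the 25 of genes that rose. Of all 5113 promoters 4.17% held them. The CRE letters TGACGT were in 5 of the 34 (14.7%), in 1 of the 25 that rose (4%) and in 5.93% of all. The TR-box core TTCTTTG was in 7 of the 34 (20.6%), in 3 of the 25 (12%) and in 9.94% of all. HomolD, CAGTCACA, was in 63.0% of ribosomal protein promoters and 1.85% of those of ribosome assembly genes, against 2.68% of all. HomolE, CCCTACC, was in 34.8% of ribosomal protein promoters and 2.23% of all. GATAAG was in 5 of the 34 genes that fell (14.7%), in 0 of the 25 that rose and in 11.6% of all promoters. The MCB letters ACGCGT were in 0 of the 34, in 0 of the 25 and in 3.25% of all. A match is a description of letters. The annotated start is incomplete for 10 of the 34 genes that fell, 5 of the 25 that rose and 601 of all 5113. The shares are therefore not fully like for like. The GC-rich letters were also in 4 of 10 promoters of the trehalose and glycerol list and 4 of 8 of the pentose phosphate list. The sites of the genes that fell are shown, 1 for each gene, because among the 7 patterns theirs had the largest share relative to all promoters, with 25 bases on either side in lower case and the letters matched in capitals.
ght4: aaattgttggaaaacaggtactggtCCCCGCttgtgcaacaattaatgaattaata
gti1: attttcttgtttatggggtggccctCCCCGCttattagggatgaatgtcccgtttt
tps3: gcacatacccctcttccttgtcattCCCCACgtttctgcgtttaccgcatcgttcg
plb1: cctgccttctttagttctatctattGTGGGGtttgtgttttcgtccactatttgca
SPBPB7E8.02: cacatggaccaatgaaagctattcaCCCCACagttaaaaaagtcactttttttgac
SPAC26H5.09c: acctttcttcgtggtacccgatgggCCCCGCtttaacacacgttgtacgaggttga
SPAC11D3.03c: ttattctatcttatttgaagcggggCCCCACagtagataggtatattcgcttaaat
The sites begin 91 bases before the start in ght4, 114 in gti1 and 190 in plb1, where the letters are on the opposite strand. The fold changes of these genes, given above, were between -1.59 and -1.08, and ght5, which fell most among the transporters, has none of the 7 patterns in this window, which in its case begins from a start that is incomplete in the annotation.

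The epe1KO_tfs1DN comparison shares no library with this one, so the difference between the fold changes could be tested gene by gene. Its values are between libraries so labelled, because epe1 had a mean of 706 there, against 712 in the WT and seb1-1 pair, so the labelled deletion is not seen in its counts; the 2 tables were normalized separately. Of 5069 genes with both values 132 differed at an adjusted p below 0.05 (2.60%). They include 36 of the 59 genes, 27 that fell and 9 that rose. The 59 were chosen by the same fold change that enters the difference, so this count is a description and is not read against the 2.60%. The moderation is stronger in the epe1KO_tfs1DN table, so the sizes of the folds are not on the same scale. The genes ght5, sib2 and aif1 were at 0.24, 0.37 and 0.12 there, and each differed, with adjusted p of 7.91e-10, 3.53e-10 and 2.06e-07. The fall in seb1-1 by which these genes were chosen makes up most of each difference, so these p-values are not separate support. Opposite directions, past an adjusted p below 0.05 in both tables, were found for 8 genes that fell, among them agl1 at 1.09, mei2 at 0.76, rds1 at 0.66 and pdc201 at 0.64 in epe1KO_tfs1DN. The septin gene spn5 fell in both, at -1.39 and -0.60. Of the 11 ribosome assembly genes that rose only cgr1 passed the threshold for a difference (adjusted p 0.0284), and lcp5 rose in both, at 1.07 and 0.52. The differences of the others, higher in seb1-1, ran from 0.55 for lcp5 (adjusted p 0.503) to 1.14 for mis3 (adjusted p 0.0621). Falling short of the threshold does not show that their changes were equal. The medians of the small and large subunit lists in epe1KO_tfs1DN were 0.10 and 0.09, and that of the ribosomal proteins was -0.26.

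**Figure D5:**
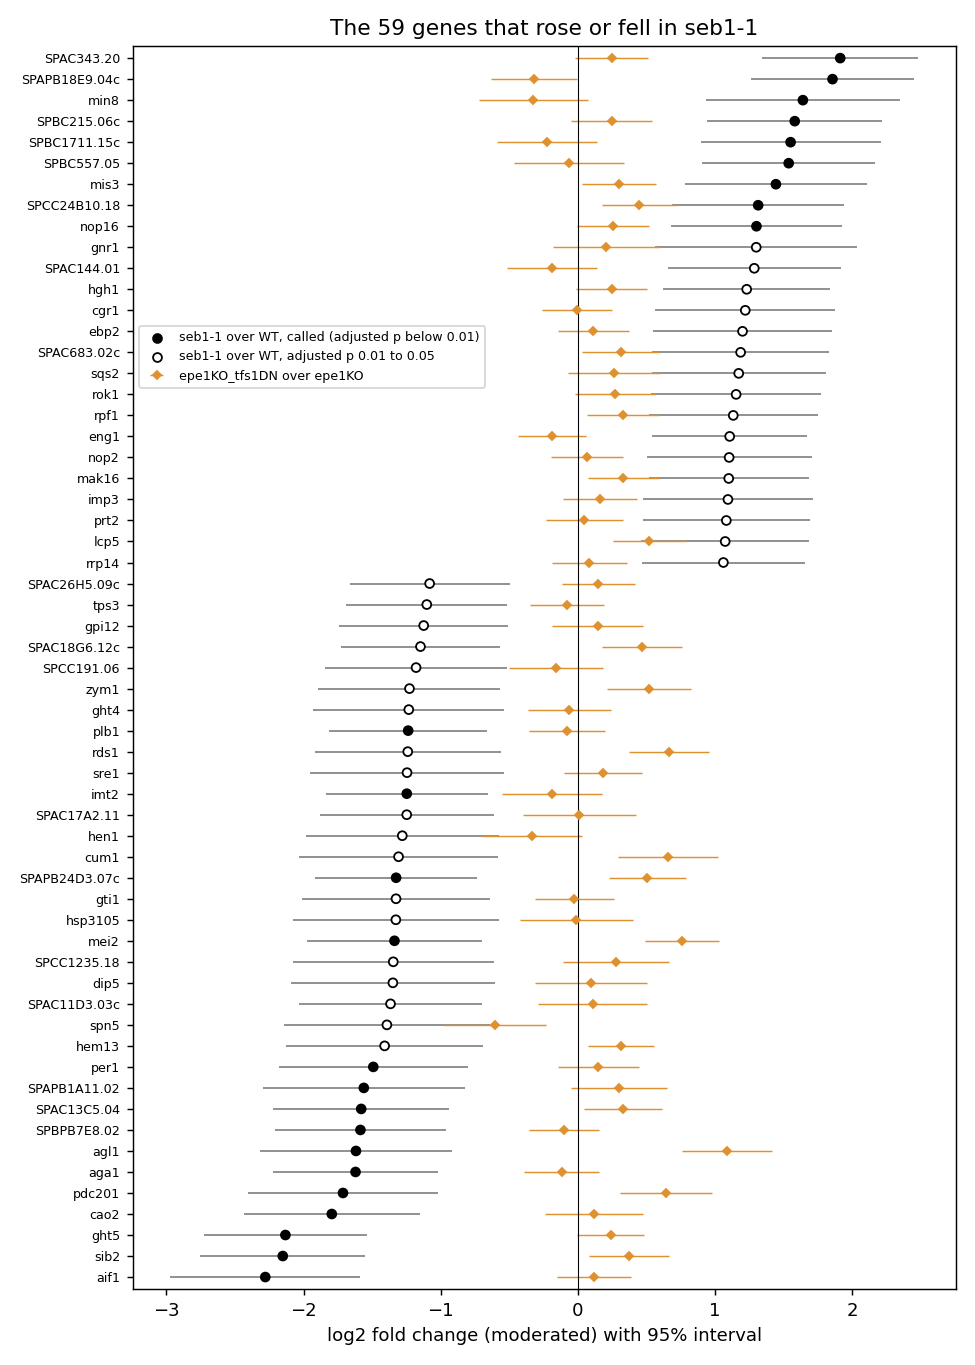
Moderated log2 fold change with 95% interval of the 59 genes that rose or fell in seb1-1 over WT (circles, filled where called), beside the same genes in epe1KO_tfs1DN over epe1KO (diamonds). The diamonds lie mostly between -0.6 and 1.1, with agl1 at 1.09 the highest and spn5 at -0.60 the lowest.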

How the data were processed

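Poly(A) RNA of 8 libraries in 4 groups was sequenced, and the values analysed are the result tables of the 2 pairs of groups. Per the labels the genome build was ASM294v2, and the study names TopHat for alignment; versions, the counting tool and its strand setting: not given in the sources used here. The authors made both tables with DESeq2. They deposited a mean normalized count per gene (a signal over 4 libraries), a moderated log2 fold change, its SE and a Wald score, which is the fold change over its SE, and the p-value with its Benjamini-Hochberg adjustment. These columns of the authors' own comparison are used because the tables hold nothing else. They hold no value per library, so depth is unknown and no fit could be repeated. The direction of the epe1KO_tfs1DN table follows the study's supplement.

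From these values, 95% intervals were taken at 1.96 SE on either side of the fold change, the 2 comparisons were set against each other by a Wald test of the difference of their fold changes with Benjamini-Hochberg adjustment, and medians were taken over 52 gene lists (Python 3.11.15, pandas 2.3.3, scipy 1.17.1). The lists, members and rules were chosen with earlier results of these data known. After values had been seen, the 3 ribosome assembly lists were joined, cgr1 was moved between 2 lists, and genes whose symbol names another gene in budding yeast (such as rrp1, pck1 and lsc1) were taken out of their lists by annotated product. Named genes are all that rose or fell, up to 4 per list with the smallest p, seb1, and marker and mating type genes; further members and neighbours were named after their values were seen. Symbols, lengths, neighbours and promoters come from the RefSeq annotation of ASM294v3, matched to 5114 of 5129 IDs, with blastn 2.17.0 for copies of at least 90% identity. Its build differs from the authors', so no coordinates are given. Of the start positions used, 601 of 5113 are incomplete at the 5′ end. No label tells whether libraries of 1 group are separate cultures, so p-values measure only the spread between these libraries. A p-value is given for 5071 genes and an adjusted p for 4972.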

Additional observations from a re-analysis of the deposited data

How the results depend on the processing

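The count of 24 called genes became 59 at an adjusted p threshold of 0.05 and 101 at an unadjusted p below 0.01. It stayed within 1.5 times of 24 when p-values were adjusted over all genes with one. The same held when genes under a mean of 50 were left out (23) and when Wald scores were scaled by their spread (22). It was 24 without the fold threshold and with the moderation undone, but neither setting could change it. The smallest called change was already 1.24, and undoing the moderation enlarges changes without altering their adjusted p. The 59 genes that rose or fell became 24 at a threshold of 0.01, and 53 and 50 with the mean filter and the scaled scores. The standard deviation of the prior behind the moderation was estimated as 2 times the largest SE of each table, at 0.768 for seb1-1 and 0.422 for epe1KO_tfs1DN. Undoing the moderation in both left 109 of the 132 genes that differed between comparisons among 110 found, and a threshold of 0.01 left 63. List medians kept within their members' median SE under every alternative, except hexose transporters, at -1.02 with the moderation undone against -0.64. Undoing it gives no value for ght7, so these 2 medians cover different genes and part of the shift may come from that. The sign of a median turned for 5 lists, each between -0.11 and 0.13 under every setting that turned it. No paired analysis was possible because the tables hold no value per library, and leaving out a library was not possible for the same reason.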
